A study of Mus musculus with 10 samples.

Results

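The genes of the fibronectin type III domain containing (FNDC) family were compared in RNA-sequencing libraries of C2C12 cells, a mouse myoblast line that fuses into myotubes when serum is withdrawn. The members were taken by their symbols, and all 8 of them (Fndc1, Fndc3a, Fndc3b, Fndc4, Fndc5, Fndc7, Fndc8 and Fndc9) were found among the 55359 genes of the deposited table. The cells were, by the labels, grown in medium with 20% FBS, transfected with 100 nM siRNA and differentiated for 4 days in medium with 2% horse serum. The siRNA was directed against Fndc1 in 5 libraries (si-Fndc1) and was a control siRNA in the other 5 (si-Control), so that both groups shared the line, the transfection and the serum change. The comparison asked which levels the relatives of Fndc1 had in these cells, and whether any of them changed when Fndc1 was knocked down. The labels do not say whether the 5 libraries of a group came from separate cultures, so p-values measure only the spread between these libraries, which may be technical.

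The fibronectin type III (FN3) domain is a small fold of beta strands first described in fibronectin, and it occurs in matrix proteins, in cell surface receptors and in large muscle proteins such as titin. FNDC genes share this domain but little else, and their products go to different places. FNDC1 is a large protein that the study examines as a myokine, a factor that muscle cells release. FNDC5 is the membrane precursor of irisin, which muscle sheds during exercise, and FNDC4 is its closest relative and is also shed from the membrane. FNDC3A and FNDC3B carry a membrane anchor, and the first is known for the contact of Sertoli cells with spermatids and the second for the differentiation of fat cells. Less is known of Fndc7, Fndc8 and Fndc9.

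The members are listed at the following places in the table, whose build is given as GRCm39 in the submitters' processing notes. Fndc1 is at chr17:7957401-8046134, Fndc3a at chr14:72775386-72947443, Fndc3b at chr3:27470311-27765388, Fndc4 at chr5:31449586-31453280 and Fndc7 at chr3:108760999-108797324, all on the reverse strand. Fndc5 is at chr4:129030792-129038386, Fndc8 at chr11:82782950-82791627 and Fndc9 at chr11:46126358-46130699, all on the forward strand. The whole of Fndc9 lies within the span of Cyfip2, on the opposite strand. The last bases of Fndc8 overlap Nle1, and a processed pseudogene, Gm43097, lies within Fndc7, both on the opposite strand. Whether the reads were counted by strand is not given in the sources used here, and without strand the reads of such partners cannot be told apart.

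The sequences before the starts of 3 members are shown for the contrast in level between them, since Fndc1 was the most abundant member, Fndc9 had few reads and Fndc8 had no read. They are from RefSeq on GRCm38.p6, another build than that of the table, and run 5′ to 3′ on the strand of the gene. Fndc1 is shown at chr17:7827341-7827552 (reverse strand), the first 212 of the 250 bases of its window, since the bases next to that start lie within the span of the gene and are left out, Fndc8 at chr11:82891895-82892144 and Fndc9 at chr11:46235307-46235556 (both forward). Capitals mark each E-box, CANNTG, the letters bound by myogenic factors such as MyoD, which read the same on both strands.
Fndc1: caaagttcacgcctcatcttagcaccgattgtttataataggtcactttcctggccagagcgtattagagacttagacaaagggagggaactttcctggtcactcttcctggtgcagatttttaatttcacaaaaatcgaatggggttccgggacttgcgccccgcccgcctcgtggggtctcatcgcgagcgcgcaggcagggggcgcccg
Fndc8: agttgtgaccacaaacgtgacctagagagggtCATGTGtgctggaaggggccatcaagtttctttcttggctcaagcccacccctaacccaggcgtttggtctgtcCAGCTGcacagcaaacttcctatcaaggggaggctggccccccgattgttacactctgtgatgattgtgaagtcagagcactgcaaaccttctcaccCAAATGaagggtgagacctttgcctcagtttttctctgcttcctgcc
Fndc9: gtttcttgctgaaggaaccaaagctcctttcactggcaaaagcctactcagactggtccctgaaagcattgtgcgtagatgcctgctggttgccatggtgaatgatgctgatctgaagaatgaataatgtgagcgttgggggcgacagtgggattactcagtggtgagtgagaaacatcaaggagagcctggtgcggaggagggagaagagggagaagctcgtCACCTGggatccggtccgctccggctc
In the 250 bases before the start, the promoter window of Fndc1 held no E-box, and nor did those of Fndc3b and Fndc5. That of Fndc4 held 2, that of Fndc8 held 3, and that of Fndc9 held 1. At least 1 E-box is in 66.2% of the 32851 promoter windows of this length. The form CAGCTG, which overlaps the E-box, is in 13.0% of all windows, and among the members it was found once, in that of Fndc8. The windows differed in CpG content, with 18 CpG in that of Fndc1, 25 in that of Fndc3b and 38 in that of Fndc5, above the upper quartile of 16 over all windows. Those of Fndc4 and Fndc9 held 8 each and that of Fndc8 held 3, where the median of all windows was 6. A match of letters is a description of the window and no record of binding, and windows were given for 6 of the 8 members.

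Counted reads numbered 66771605 to 75995168 per si-Control library and 56332844 to 72839369 per si-Fndc1 library. All 14 muscle markers examined, among them Myod1, Des and Ckm, had reads in every library, and their summed level was 7173 to 7465 FPKM (fragments scaled to the length of the transcript and the size of the library) in the control libraries and 7569 to 8273 FPKM in the knockdown libraries. Of the 13 that passed the filter on low values, 5 were called higher and 1 lower in si-Fndc1, and 5 higher and 3 lower after correction for GC content and length. Of all genes tested 17.3% were called higher and 17.2% lower, and 11.3% and 11.4% with the correction. Of 20 liver markers, 17 passed that filter and all 17 were higher in si-Fndc1, with a median log2 fold change of 5.78. The filter took the mean of all 10 libraries, and most of the 17 reached it only through their si-Fndc1 values. Hp, for one, had means of 0.0668 FPKM in si-Control and 6.44 FPKM in si-Fndc1. The direction of the 17 was thus largely fixed by the filter. The summed level of all 20 was 0.269 to 7.94 FPKM in si-Control, where up to 17 of the 20 were at 0 in a library, and 64.9 to 218.9 FPKM in si-Fndc1. The fold changes also moved with base composition, with a Spearman correlation across 11185 genes of -0.523 between the log2 fold change and the GC content of the transcript, a description across genes, which are not replicates. The part of the liver reads in the results below was not tested, and values corrected for GC content and length are given where they differ.

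Fndc1, the gene the siRNA was directed against, was the most abundant member in si-Control. Its level was 26.7, 24.7, 28.7, 29.6 and 29.2 FPKM in si-Control replicates 1 to 5, and 20.4, 23.5, 20.8, 21.1 and 18.7 FPKM in si-Fndc1 replicates 1 to 5. Every si-Fndc1 library was below every si-Control library, and the lowest control, replicate 2, was close to the highest knockdown library, also replicate 2. The control mean was 27.8 ± 2.04 FPKM and the knockdown mean 20.9 ± 1.70 FPKM (SD, n = 5 each), a ratio of 0.752 (exact two-sided permutation test, p = 0.0079, the smallest that 5 against 5 libraries can give). In the fit of edgeR over 13548 genes the log2 fold change was -0.40 ± 0.066 (SE), a fold of 0.757 with a 95% interval of 0.684 to 0.837 and an adjusted p of 0.00093. The reads behind these values numbered 19332 to 23573 per control library and 11555 to 18830 per knockdown library, so counting error was small beside the spread of the libraries. In bulk RNA a lower level in each cell and fewer cells that express the gene cannot be told apart.

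The fall was smaller in the fit that adjusts for base composition and length together. Corrected for transcript GC content and for the length implied by counts and FPKM, the log2 fold change of Fndc1 was -0.22 ± 0.051 (SE). Its transcript has 53.4% GC. The fold was 0.858 with a 95% interval of 0.794 to 0.927 (edgeR, adjusted p = 0.010). The gene passed the test in both fits, with 4663 of 13548 genes passing in the first and 2536 of 11185 in the second, where 4244 of the same 11185 passed without the correction. The summed level of liver markers was 119.2, 218.9, 217.2, 214.2 and 64.9 FPKM in si-Fndc1 replicates 1 to 5. Fndc1 stood at 20.4, 23.5, 20.8, 21.1 and 18.7 FPKM in the same libraries. In si-Control replicates 1 to 5 the liver sum was 0.322, 2.23, 5.85, 0.269 and 7.94 FPKM. Fndc1 stood at 26.7, 24.7, 28.7, 29.6 and 29.2 FPKM in those 5 libraries. A relation between these levels was not tested.

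**Figure D1:**
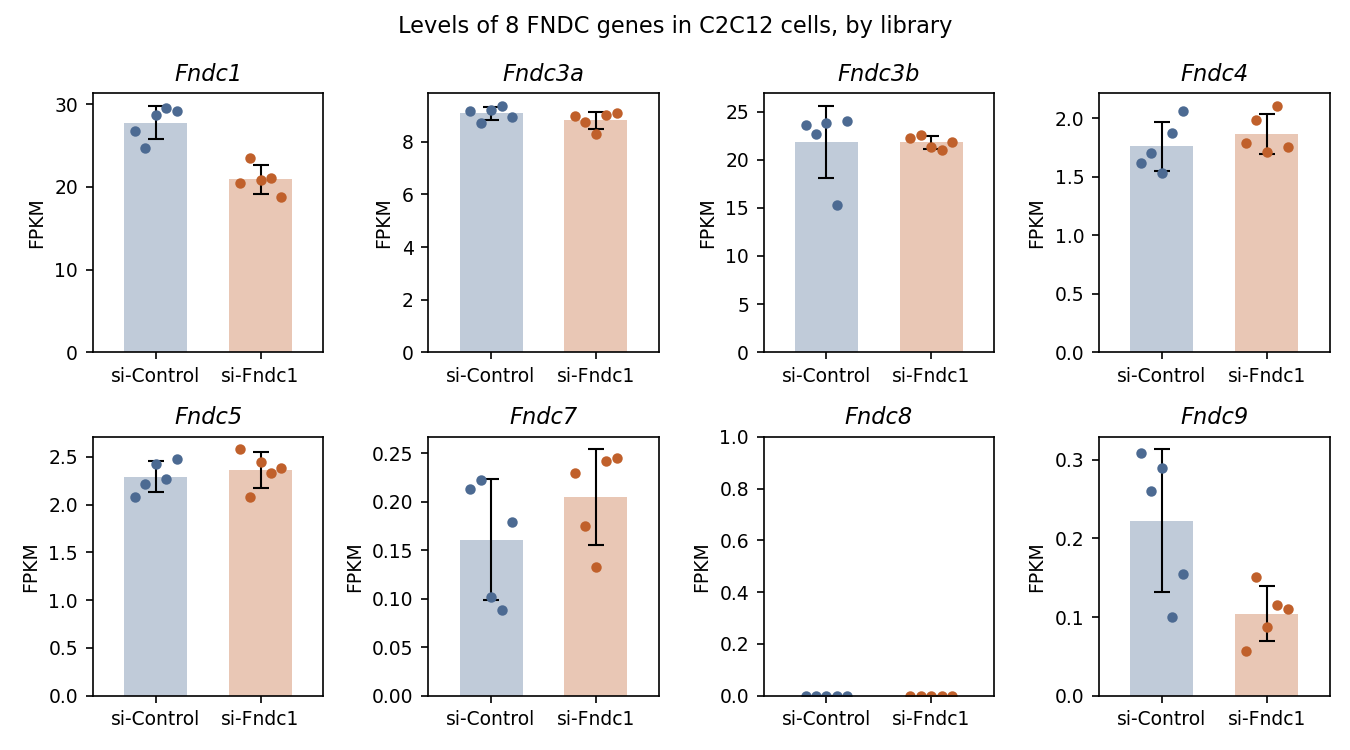
Level of each FNDC gene in FPKM (vertical axes, linear from 0 and different for each gene) in the 5 si-Control and 5 si-Fndc1 libraries. Points are libraries in order of replicate number, bars are means and whiskers 1 SD. Only Fndc1 has all 5 si-Fndc1 points below all 5 si-Control points, and the single low si-Control point of Fndc3b, at 15.3 FPKM, is replicate 4.

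Among the 5 members that passed the filter of a mean of 0.5 FPKM, Fndc1 was the only one called with all 10 libraries, and the others differed by less than the test could tell from the spread of the libraries. Of all 13548 genes tested 34.4% were called, 17.2% in the direction of Fndc1, and the members' 1 call in 5 is read against that background. Genes whose si-Fndc1 libraries all lay below the si-Control libraries, as those of Fndc1 did, made up 13.0% of the genes tested. The other 3 members, Fndc7, Fndc8 and Fndc9, did not pass the filter. The median log2 fold change of the 5 members was 0.0019, against 0.0043 over all genes tested.

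Fndc3b was the second member by level in si-Control. It measured 23.7, 22.6, 23.8, 15.3 and 24.0 FPKM in si-Control replicates 1 to 5, and 22.3, 22.6, 21.3, 21.0 and 21.8 FPKM in si-Fndc1 replicates 1 to 5. The other control libraries lay close together and replicate 4 lay below every other library. The control mean was 21.9 ± 3.73 FPKM and the knockdown mean 21.8 ± 0.642 FPKM (SD, n = 5 each), and the log2 fold change from edgeR was 0.0019 with a 95% interval of -0.24 to 0.24 (adjusted p = 0.99). Without si-Control replicate 4 the result turned. The control mean was then 23.5 ± 0.615 FPKM (SD, n = 4), the values of the groups no longer overlapped (22.63 to 24.03 against 21.04 to 22.59 FPKM), and the log2 fold change was -0.10 ± 0.032 (SE) with an adjusted p of 0.035. Fndc3b therefore passed the test in the lower direction when that 1 library was left out, and not when it was kept. Without the library its fold was 0.930 with an interval of 0.885 to 0.978. In that fit 30.4% of the 13548 genes tested were called, and 15.1% were called lower. Of the 10 fits that each left out 1 library, this was the only one that called Fndc3b. The share of genes without overlap was not counted for the libraries kept.

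Fndc3a varied little between libraries. Its level was 9.16, 8.73, 9.21, 9.37 and 8.93 FPKM in si-Control replicates 1 to 5, and 8.97, 8.74, 8.31, 9.0045 and 9.11 FPKM in si-Fndc1 replicates 1 to 5. The groups overlapped, with 3 of 5 controls above every knockdown library and 1 knockdown library below every control, and had means of 9.08 ± 0.251 and 8.83 ± 0.321 FPKM (SD, n = 5 each). The fold was 0.977 with a 95% interval of 0.931 to 1.03 (edgeR, adjusted p = 0.45), the narrowest interval of any member, and one that does not reach the fold of Fndc1. The GC content of the Fndc3a transcript is 44.0%. In the fit corrected for GC content and length together the log2 fold change was -0.08 with an interval of -0.15 to -0.02 and an adjusted p of 0.054, just outside the threshold of 0.05.

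Fndc5 and Fndc4, whose products are shed from the membrane, were low. Fndc5 measured 2.08, 2.22, 2.43, 2.27 and 2.48 FPKM in si-Control replicates 1 to 5, and 2.58, 2.08, 2.45, 2.34 and 2.38 FPKM in si-Fndc1 replicates 1 to 5. The lowest value of each group was the same to 3 digits, and the means were 2.29 ± 0.161 and 2.36 ± 0.185 FPKM (SD, n = 5 each). The fold was 1.04 with a 95% interval of 0.917 to 1.17 (edgeR, adjusted p = 0.66). Fndc4 measured 1.62, 1.71, 1.53, 1.87 and 2.07 FPKM in si-Control replicates 1 to 5, and 1.79, 1.98, 1.71, 2.11 and 1.75 FPKM in si-Fndc1 replicates 1 to 5. Its groups overlapped as well, with means of 1.76 ± 0.212 and 1.87 ± 0.169 FPKM (SD, n = 5 each) and a fold of 1.07 with a 95% interval of 0.912 to 1.248 (edgeR, adjusted p = 0.52).

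**Figure D2:**
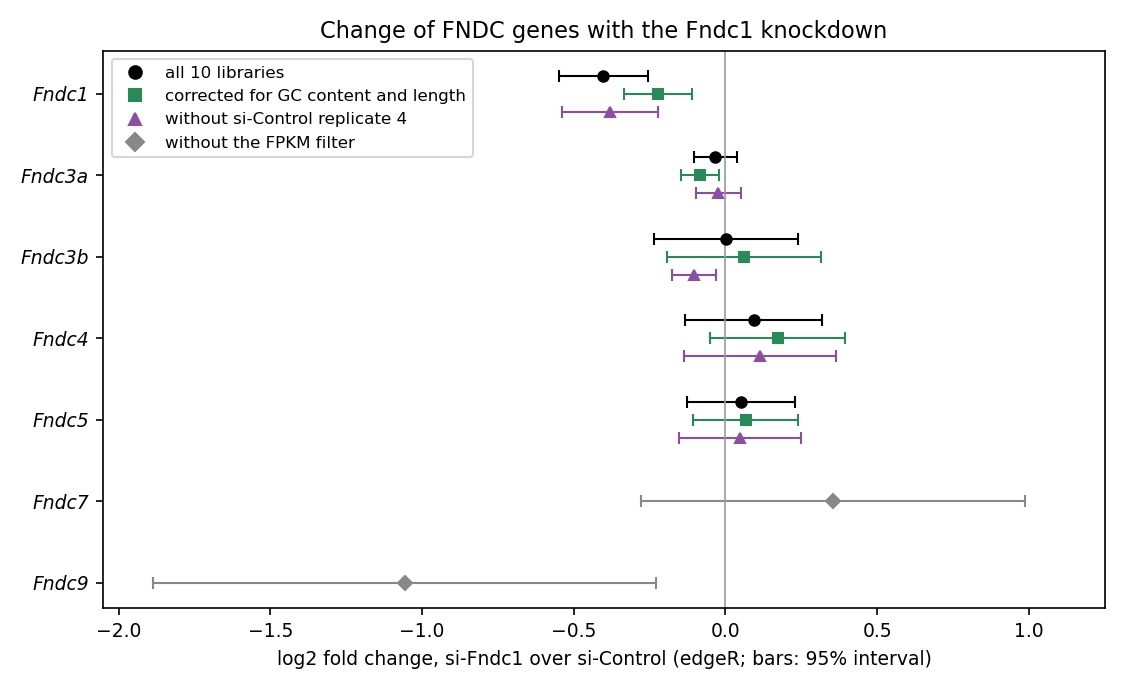
Log2 fold change of si-Fndc1 over si-Control (horizontal axis) for the 7 FNDC genes with reads, with 95% intervals from edgeR. Black circles are the fit of all 10 libraries, green squares the fit corrected for GC content and length, purple triangles the fit without si-Control replicate 4, and grey diamonds the fit without the filter on FPKM, for the 2 genes that did not pass it. Fndc1 lies left of 0 in each, moving from -0.40 to -0.22 with the correction, and Fndc3b leaves 0 when 1 control library is left out.

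Fndc9 and Fndc7 had few reads and were under the filter. Fndc9 had 60, 48, 53, 19 and 27 reads in si-Control replicates 1 to 5, and 11, 29, 16, 22 and 16 reads in si-Fndc1 replicates 1 to 5. The 3 highest libraries were controls, and control replicate 4 lay within the range of the knockdown libraries in reads and in FPKM, whereas control replicate 5 did so in reads alone (0.155 FPKM against at most 0.151 FPKM). The control mean was 0.222 ± 0.0908 FPKM and the knockdown mean 0.104 ± 0.0352 FPKM (SD, n = 5 each), a ratio of 0.468, the farthest from 1 of the 7 members with reads (exact two-sided permutation test, p = 0.048). In the fit without the filter, over 28952 genes of which 14.4% were called, its log2 fold change was -1.06 ± 0.38 (SE) with an adjusted p of 0.094, so Fndc9 did not pass. Cyfip2, on the other strand of the same bases, measured 0.998, 0.890, 0.808, 1.01 and 0.924 FPKM in si-Control replicates 1 to 5 and 1.10, 1.35, 0.856, 0.895 and 0.631 FPKM in si-Fndc1 replicates 1 to 5. Its groups overlapped, and it had 280 to 784 reads per library where Fndc9 had 11 to 60.

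Fndc7 had 121, 118, 55, 48 and 90 reads in si-Control replicates 1 to 5, and 121, 96, 71, 130 and 104 reads in si-Fndc1 replicates 1 to 5. Control replicates 3 and 4 were the lowest of all 10 libraries. The control mean was 0.161 ± 0.0623 FPKM and the knockdown mean 0.205 ± 0.0491 FPKM (SD, n = 5 each), and the fold without the filter was 1.28 with a 95% interval of 0.825 to 1.98 (edgeR, adjusted p = 0.45). The pseudogene within it, Gm43097, had 5 to 17 reads per library. Fndc8 had 0 reads in each of the 10 libraries, which allows up to 3 counts, or 0.0395 to 0.0533 CPM (read counts scaled to the size of the library) depending on the library. Of 6 testis markers examined beside it, 5 had no read in any library and Prm1 had 3 reads in 1 library.

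The order of the levels, which FPKM makes comparable between genes by length, ran in si-Control from Fndc1 over Fndc3b, Fndc3a, Fndc5, Fndc4, Fndc9 and Fndc7 to Fndc8. Each of the first 5 members was above the next in all 5 control libraries, and the values of Fndc9 and Fndc7 overlapped. In si-Fndc1 the first places were exchanged, with Fndc3b at 21.8 FPKM and Fndc1 at 20.9 FPKM, and these overlapped, with Fndc3b higher in 3 of 5 libraries. Fndc5 and Fndc4 also overlapped there by range, although Fndc5 was higher in each of the 5 libraries. With the longest transcript of the NCBIM37 annotation as the length, Fndc4 and Fndc5 changed places in both groups and overlapped, so their order rests on the length used.

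The levels of the members were then set beside those of all genes tested. Fndc1 at 27.8 FPKM in si-Control was above 87.7% of the genes tested, Fndc3b above 84.2% and Fndc3a above 65.4%, whereas Fndc5 was above 28.7% and Fndc4 above 23.0%. The 3 most abundant members made up 93.0% of the summed FPKM of the family in si-Control and 91.9% in si-Fndc1. The share of Fndc1 was 44.0% in si-Control and 37.3% in si-Fndc1, and that of Fndc3b was 34.6% and 38.9%. The summed level of the family was 58.5 to 67.0 FPKM in the si-Control libraries and 54.1 to 59.2 FPKM in the si-Fndc1 libraries.

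Ratios between members of the same library do not depend on the scaling of the libraries. The ratio of Fndc1 to Fndc3b, a comparison chosen after the values were seen, was 1.13, 1.09, 1.21, 1.94 and 1.21 in si-Control replicates 1 to 5, and 0.918, 1.04, 0.976, 1.001 and 0.859 in si-Fndc1 replicates 1 to 5. All 5 knockdown libraries were below all 5 controls, and the high control value is replicate 4, where Fndc3b was low. Fndc1 alone already separated the groups in this way, as 13.0% of the genes tested did. The share of genes whose ratio to Fndc3b or Fndc3a separated the groups was not counted. The mean ratio was 1.32 ± 0.351 in the controls and 0.959 ± 0.0708 in the knockdown libraries (SD, n = 5 each, exact two-sided permutation test on the log2 ratios, p = 0.0079). Without replicate 4 the control mean was 1.16, and p was 0.016, the smallest that 4 against 5 libraries can give. The ratio of Fndc1 to Fndc3a was 3.06 ± 0.179 in the controls and 2.37 ± 0.237 in the knockdown libraries (SD, n = 5 each, exact permutation test, p = 0.0079), with controls from 2.83 to 3.27 and knockdown libraries from 2.06 to 2.68. Fndc1 thus fell relative to both relatives, with and without that library, in values not corrected for GC content and length. Uncorrected, the log2 fold changes were -0.40 for Fndc1, -0.03 for Fndc3a and 0.0019 for Fndc3b. In the corrected fit they were -0.22, -0.08 and 0.06, so Fndc1 and Fndc3a stood closer together there.

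**Figure D3:**
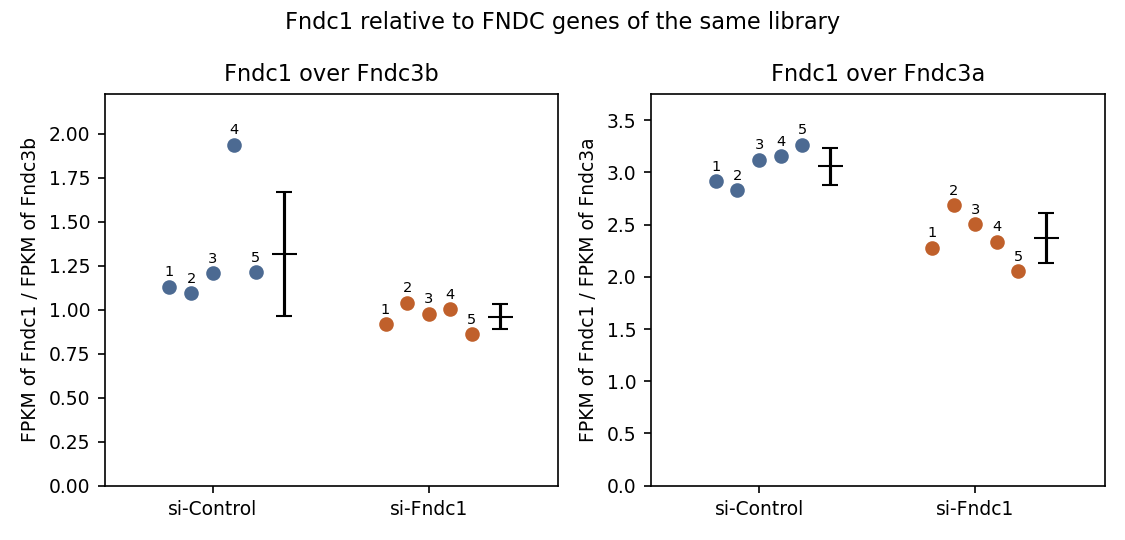
FPKM of Fndc1 divided by the FPKM of Fndc3b (left) and of Fndc3a (right) in the same library, on linear axes from 0. Points are libraries with their replicate numbers, and the horizontal marks with whiskers are means and SD of 5 libraries. In both panels the si-Fndc1 points lie below all si-Control points, and si-Control replicate 4 stands at 1.94 on the left only.

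The GC content of the transcripts placed the members differently against the trend of all genes. Fndc1 (53.4% GC), Fndc5 (53.5%) and Fndc4 (55.2%) have nearly the same GC content, and their log2 fold changes were -0.40, 0.05 and 0.09. They are not alike in length, which counts and FPKM put at 10976 bp for Fndc1, 3073 bp for Fndc5 and 3399 bp for Fndc4. The correction takes GC content and length together, and their parts were not tested apart. With the correction these became -0.22, 0.07 and 0.17, and those of Fndc3a and Fndc3b became -0.08 and 0.06. Over all genes the correction brought the Spearman correlation from -0.523 to -0.006. Fndc1 was the only member called after it, and the adjusted p was 0.25 for Fndc4, 0.59 for Fndc5 and 0.75 for Fndc3b.

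**Figure D4:**
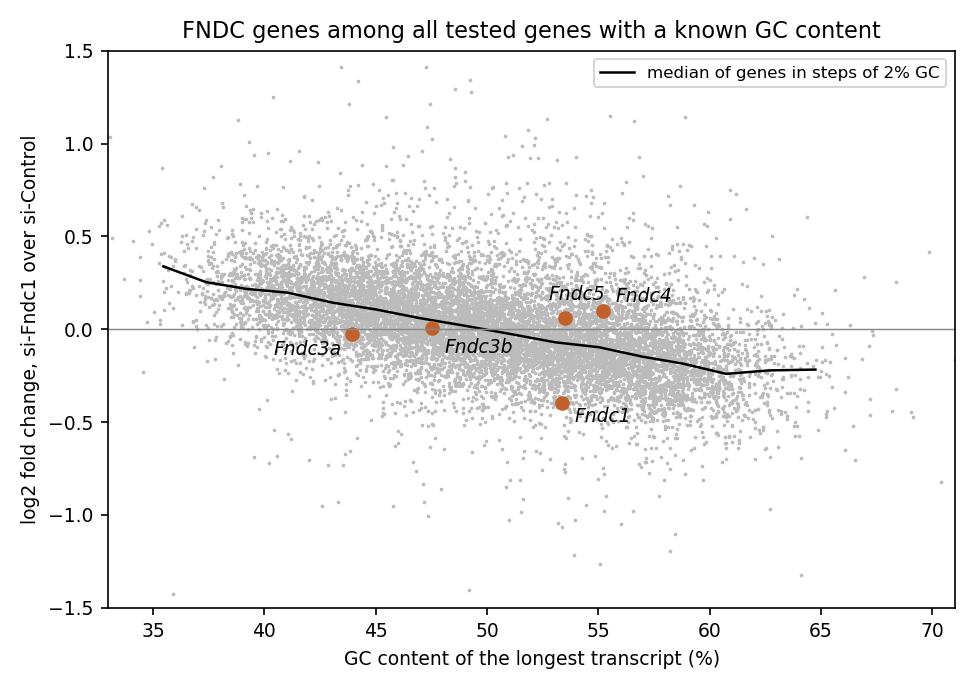
Log2 fold change of si-Fndc1 over si-Control (vertical axis, uncorrected) against the GC content of the longest transcript in percent, for 11185 tested genes (grey), of which 80 lie outside the plotted range of 1.5 in either direction. The black line joins the medians of genes in steps of GC content, and orange points are the 5 members tested. The line falls from left to right, Fndc1 lies below it, and Fndc4 and Fndc5, at nearly the same GC content, lie above it.

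Profiles over the 10 libraries were compared by the root mean square difference of centred log2 CPM, not corrected for GC content or length. The genes nearest to Fndc1 were sought among 11950 genes, where the median gene was at 0.275. They were Emc1 at 0.036, a subunit of a complex that inserts proteins into the endoplasmic reticulum membrane, Tesk1 at 0.043, a kinase of cofilin, and Arid1b at 0.051, a subunit of a chromatin remodelling complex. Prcc, a nuclear protein, also stood at 0.051, and Polr2a, the largest subunit of RNA polymerase II, at 0.052. Their log2 fold changes ran from -0.44 in Emc1 to -0.36 in Prcc, beside -0.40 in Fndc1. All 5 shared with Fndc1 the highest si-Fndc1 value in replicate 2 and the lowest in replicate 5. Since the genes were picked by likeness to Fndc1 over these same 10 libraries, both likenesses follow from the choice and are no separate result. The relatives were farther than these 5 genes, with distances of 0.213 for Fndc3a, 0.271 for Fndc5, 0.279 for Fndc4 and 0.309 for Fndc3b. Of the genes searched, 29.2% were nearer to Fndc1 than Fndc3a was, 48.7% than Fndc5, 51.4% than Fndc4 and 60.4% than Fndc3b.

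**Figure D5:**
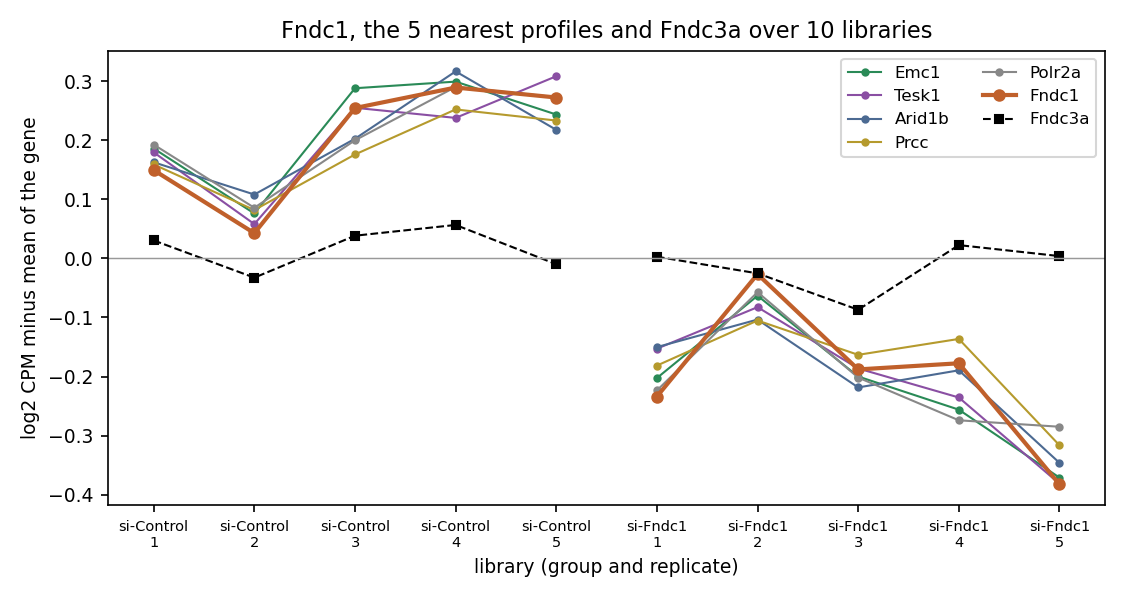
Log2 CPM minus the mean of the gene (vertical axis) in the 10 libraries (horizontal axis, group and replicate) for Fndc1 (thick orange), the 5 genes nearest to it and Fndc3a (dashed). Lines join the libraries of a group to guide the eye and mark no order. Fndc1 ranges from 0.29 in si-Control replicate 4 to -0.38 in si-Fndc1 replicate 5 and is close to the 5 genes throughout, while Fndc3a stays between -0.09 and 0.06.

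Further genes with FN3 domains were read from lists. Of 5 other genes of the FNDC and FSD groups (FSD genes pair the FN3 domain with a SPRY domain), 3 passed the filter and none was called by edgeR. Fndc10 had a control mean of 2.43 ± 0.256 FPKM and a knockdown mean of 2.17 ± 0.127 FPKM (SD, n = 5 each, adjusted p = 0.23). Fsd1l varied widely within both groups, from 0.884 to 2.43 FPKM among controls and from 0.799 to 3.33 FPKM among knockdown libraries. Fsd2, at 0.758 and 0.704 FPKM, was also not called, Fndc11 had no reads and Fsd1 was almost without them.

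Of 12 matrix genes with FN3 domains, 4 passed the filter, and 3 of these were called, all lower in si-Fndc1. Of all genes tested 34.4% were called and 17.2% were called lower. Among genes with a mean of at least 5 FPKM, as these 3 have, the shares were 49.6% and 24.7%. Tnc, which encodes the matrix protein tenascin C, was 76.6 ± 1.65 FPKM in the controls and 64.9 ± 2.48 FPKM in the knockdown libraries (SD, n = 5 each), and its log2 fold change was -0.23 (adjusted p = 0.00040). It was called in the corrected fit too (-0.11, adjusted p = 0.049). Fn1, the gene of fibronectin, was 2553 ± 96.2 and 2312 ± 107.0 FPKM (SD, n = 5 each, -0.14, adjusted p = 0.022), but stood at 0.07 after the correction (adjusted p = 0.065). Col12a1, a collagen, was 56.3 ± 2.79 and 50.2 ± 3.19 FPKM (SD, n = 5 each, -0.16, adjusted p = 0.030) and at -0.03 after it (adjusted p = 0.55). The call of Fn1 was lost when si-Control replicate 1 (adjusted p = 0.055) or 3 (0.059), or si-Fndc1 replicate 1 (0.0502), was left out, and both calls were lost without the filter on FPKM. That of Col12a1 was lost in 7 of 10 fits that left out 1 library (si-Control replicates 1, 3, 4 or 5, or si-Fndc1 replicates 3, 4 or 5), with an adjusted p of 0.0546 to 0.072. Vwa1, at 3.80 and 3.34 FPKM, was not called (adjusted p = 0.090). The other 8 genes were under the filter, and of these Col7a1 had 0.435 FPKM in si-Control and 0.325 in si-Fndc1.

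The receptors and regulators known for FNDC proteins were examined last. Of 8 genes 6 passed the filter, and 5 were called, 1 higher and 4 lower in si-Fndc1. In the corrected fit 2 of the 6 were called, both lower. Over all genes 34.4% were called, 49.6% of those with a mean of at least 5 FPKM, and 22.7% in the corrected fit. Itga5 and Itgb1 encode the 2 chains of the fibronectin receptor. Itgb1 was 287 ± 15.5 FPKM in the controls and 329 ± 26.1 FPKM in the knockdown libraries (SD, n = 5 each), and its log2 fold change was 0.21 (adjusted p = 0.014), whereas Itga5 was 59.7 ± 1.65 and 51.1 ± 1.70 FPKM (SD, n = 5 each, -0.22, adjusted p = 0.00056). After the correction these stood at 0.07 (adjusted p = 0.42) and -0.02 (adjusted p = 0.65), so neither was called, and Itgb1 was also not called on quantile-normalized log2(FPKM + 1) values (0.02, adjusted p = 0.80).

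Itgav and Itgb5 encode integrin chains named as receptors of irisin. Itgb5 was 148.5 ± 7.61 FPKM in the controls and 118 ± 3.20 FPKM in the knockdown libraries (SD, n = 5 each), and its log2 fold change was -0.32 (adjusted p = 0.00015). It was called in the corrected fit as well (-0.15, adjusted p = 0.011). Itgav was 7.20, 6.75, 13.6, 14.5 and 7.07 FPKM in si-Control replicates 1 to 5 and 5.52 to 6.62 FPKM in the si-Fndc1 libraries, and control replicates 3 and 4 stood at about the same high level. Its log2 fold change was -0.74 (adjusted p = 0.024) and -0.79 corrected (adjusted p = 0.025), but it was -0.59 where si-Control replicate 3 was left out (adjusted p = 0.059) and -0.56 where replicate 4 was (0.054), and it also lost its call without si-Fndc1 replicate 3, 4 or 5 (adjusted p of 0.051 to 0.052). Esrra, a nuclear receptor that works with the coactivator encoded by Ppargc1a, was 8.68 ± 0.305 and 7.24 ± 0.743 FPKM (SD, n = 5 each, -0.25, adjusted p = 0.017), and at 0.03 after the correction (adjusted p = 0.80). Ppargc1a, known as an inducer of Fndc5, was under the filter with 0.311 and 0.307 FPKM. Bdnf, known as a gene that rises with Fndc5 in neurons, was 4.74 ± 0.607 and 5.19 ± 0.225 FPKM (SD, n = 5 each, adjusted p = 0.23).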

How the data were processed

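Total RNA of C2C12 cells was measured in 5 si-Control and 5 si-Fndc1 libraries, grouped by their titles. The authors deposited raw read counts per gene and, beside each count, an FPKM value, with 0.0001 entered for genes without a read, taken here as 0. The paper's methods name TopHat, htseq-count and the mm10 genome, the series text gives STAR and mm9, and the submitters' processing notes name cutadapt 1.9 and GRCm39, so the processing behind the table cannot be settled. Methods and series text also differ in the number of libraries, the time point, the transfection reagent and the serum of the growth medium, which is printed as the labels have it, and all 10 libraries were used. The implied gene length, from counts and FPKM, varied over libraries by a median of 0.209% over 9393 genes.

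Genes with a mean of at least 0.5 FPKM were tested on the counts with edgeR 4.0.16 (quasi-likelihood test, TMM scaling, R 4.3.3) and Benjamini-Hochberg adjustment over all 13548 genes, with a threshold of 0.05. Single values were compared by exact two-sided permutation. Alternatives were DESeq2 1.42.0, other scalings and filters, and limma 3.58.1 on log2(FPKM + 1) and log2(FPKM + 0.1). Further ones were an offset fitted on transcript GC content and the implied gene length, a replicate block, and leaving out each library. The fits were tested on simulated data. Within groups no pair of libraries agreed within sampling noise. Intervals cover the spread of libraries, and the limit of 3 counts covers counting error only. Named genes were the 8 members, the 5 nearest profiles of genes with a mean of at least 1 FPKM, up to 8 genes of each list by level, genes overlapping a member and markers that moved with the groups. The members and lists were chosen with earlier results of these data known. Promoter windows came from RefSeq (GRCm38.p6), and transcript GC content from the NCBIM37 annotation, for 82.6% of the genes tested. Of the other marker lists, 1 of 2 tested fibroblast and fat markers was called, and neither of the 2 tested blood and vessel markers was. Among blood and vessel markers under the filter, reads summed over si-Control and si-Fndc1 were 1 and 105 for Hbb-bs. They were 122 and 208 for Csf1r, 32 and 33 for Pecam1, and 0 for Ptprc and Cdh5. The 1 tested nerve marker, Map2, was called only with the offset for GC content and length (log2 fold change 0.18).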

Additional observations from a re-analysis of the deposited data

Results flagged for a closer look

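In si-Control the level of Fndc3b in replicate 4 was 15.27 FPKM, and its gap to the nearest of the other 4 libraries was 0.841 of the whole range of the group, above the limit of 0.71 for 5 samples. It was the one value flagged in the 14 groups of 5 values examined over the members with reads, where about 1 in 20 groups would be flagged by chance. The values of Fndc1 and Fndc3a in the same library, 29.6 and 9.37 FPKM, were the highest of their group.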

How the results depend on the processing

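The call of Fndc1 was kept in all 25 alternatives, with log2 fold changes of -0.45 to -0.22 and adjusted p of 2.44e-07 to 0.043. Fndc3a, Fndc4 and Fndc5 kept their direction and stayed uncalled in each alternative that tested them. Fndc3b had a log2 fold change of 0.0019 and turned to -0.0025 with library totals alone, to -0.0122 and -0.0038 without si-Fndc1 replicate 2 and 1, and to -0.1041 without si-Control replicate 4, where it was called, within a range of -0.1041 to 0.0384 over the fits that left out a library. The members called then numbered 2 of 5 tested, where 30.4% of all genes tested were called and 15.1% were called lower. Over all fits that left out a library the members called numbered 1 to 2, where 29.5% to 34.2% of all genes were called. The genes called, 4663, numbered 4000 to 4627 without 1 library, 5019 by DESeq2, 2536 of 11185 with the correction for GC content and length (4244 of the same genes without it) and 1645 with the correction and the replicate block. The order of levels kept 6 of 8 places with NCBIM37 transcript lengths, an alternative added after the data were seen. With the replicate block alone 3572 genes were called and Fndc1 had -0.40 (adjusted p = 0.012), but the numbers do not pair the libraries, since the correlations of same-numbered libraries were -0.055 to 0.062 and 1 of 5 was highest with its own number. The counts behind Fndc7 were 48 to 130 per library and those behind Fndc9 11 to 60, and Fndc8 had none.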
